A study of Mus musculus with 2 samples.

Results

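The genes described here are 10 members of the fibroblast growth factor (FGF) system, 5 ligands (Fgf4, Fgf5, Fgf8, Fgf15 and Fgf17) and 5 receptors (Fgfr1, Fgfr2, Fgfr3, Fgfr4 and Fgfrl1). They were chosen by gene symbol from the 18032 genes of the deposited table, with earlier results of these data known, and all 10 symbols were present. Polyadenylated RNA was sequenced from 2 mouse cell populations, with 1 library each. For the mESC library, wild-type embryonic stem cells of the line E14TG2a were kept in the naive state in serum-free N2B27 with 1 µM PD0325901, which blocks MEK, the kinase above ERK, 3 µM CHIR99021, which inhibits GSK3, and LIF at 100 units/ml. The cEpiSC library, also labelled wild type, came from such cells converted towards the primed state of the postimplantation epiblast. They were plated on fibronectin in that medium, and after 24 h changed to N2B27 that held activin A at 20 ng/ml and FGF2 at 12 ng/ml, for 2 days. The populations therefore differ in the presence of a MEK inhibitor and of added FGF2 protein, both of which act on the pathway described here. Effects of medium and of cell state cannot be told apart. Since each state has 1 library, the differences below describe these libraries, without a check on replicates and without p-values.

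FGF ligands are secreted proteins that bind receptor tyrosine kinases with heparan sulfate as a cofactor. The receptors signal through the adaptor FRS2 and through Ras, Raf and MEK to ERK, which enters the nucleus and acts on transcription factors, and inhibitors of the Sprouty and dual-specificity phosphatase families feed back on the chain. In mouse embryonic stem cells FGF4 is the known autocrine ligand whose ERK signal prepares the cells to leave the naive state, and the FGF signal is needed by cultured epiblast stem cells.

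The libraries held 19843719 (mESC) and 19956733 (cEpiSC) estimated counts. Levels within a gene are given as counts and as CPM, the counts divided by library size after TMM scaling, and levels between genes as the deposited TPM, which is per transcript length. A log2 ratio is that of cEpiSC over mESC, followed by its exact 95% interval, which covers counting error only. A gene was compared where it reached 1 CPM in either library, and the words called higher or called lower stand for a difference of 2-fold or beyond. For the counts that follow, the shares over all genes compared were 13.6% called higher in cEpiSC and 9.25% called lower. Markers followed the labels in part. All 8 listed formative or primed genes were called higher in cEpiSC (summed level 153 CPM in mESC and 1503 CPM in cEpiSC) and 6 of 8 naive genes lower (3159 and 977 CPM), while the naive marker Zfp42 was still at 281 CPM in cEpiSC and T, a gene often used to mark epiblast stem cells, was lower there (2.07 and 0.489 CPM). Of other cell types, the 6 primitive endoderm genes summed to 76.6 CPM in mESC and 32.3 CPM in cEpiSC with none at 0. Most of that sum was Dab2, and of the 5 compared 2 were called lower and 0 higher, at a median log2 ratio of 0.40. The 6 trophoblast genes summed to 20.7 and 9.43 CPM with Cdx2 at 0 counts in cEpiSC. Most of that sum in mESC was Tfap2a (17.9 and 3.13 CPM), while Hand1 (0.155 and 1.86 CPM) and Gata3 (0.930 and 2.93 CPM) were called higher, so that of 4 compared 2 were higher and 1 lower, at a median of 0.86. The 6 mesendoderm genes summed to 30.6 and 14.6 CPM (of 4 compared, 3 lower and 0 higher). Gsc was called lower (13.6 and 0.293 CPM), while Eomes stood at 13.5 and 13.4 CPM. Mesp1 (0 and 3 counts) and Foxa2 (1 and 0 counts) were nearly absent from both libraries. The 5 neural genes summed to 99.2 and 45.4 CPM (of 4 compared, 2 lower and 1 higher). Most of that sum was Tubb3 (69.7 and 25.9 CPM), called lower, as was Nes (25.9 and 11.9 CPM). Pax6 (0.103 and 1.61 CPM) was called higher, and Neurog2 had 0 and 2 counts. The 6 fibroblast genes summed to 16.5 and 13.0 CPM (of 3 compared, 1 lower and 1 higher). Pdgfrb (12.6 and 5.86 CPM) was called lower and Thy1 (1.09 and 4.59 CPM) higher. Dcn (0 and 1 counts) and Lum (2 and 0 counts) were nearly absent from both libraries. The part of these cell types in the results below was not tested. In bulk RNA, fewer cells of a type and less RNA per cell cannot be told apart.

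Of the 10 genes, 9 reached 1 CPM in a library, and of these 5 were called higher in cEpiSC (Fgf5, Fgf15, Fgf17, Fgfr2 and Fgfr4), none lower, and 4 lay within 2-fold (Fgf4, Fgfr1, Fgfr3 and Fgfrl1). Over all 13243 genes compared, 13.6% were called higher and 9.25% lower. Fgf5 (0 CPM in mESC) and Fgf15 (0.982 CPM in mESC) reached 1 CPM only in cEpiSC. They were thus compared only through the library where they were higher. The counts and the median that include them are therefore no independent evidence of direction. For all 5 higher genes the counting interval lay wholly beyond 2-fold, which held in the higher direction for 9.15% of all genes compared and in the lower direction for 6.34%. The median log2 ratio of the 9 genes was 1.49, or the same with Fgf5 set at its bound, against -0.02 over all genes compared. The most abundant ligand and the most abundant receptor, Fgf4 and Fgfr1, were thus not among the genes past 2-fold.

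**Figure D1:**
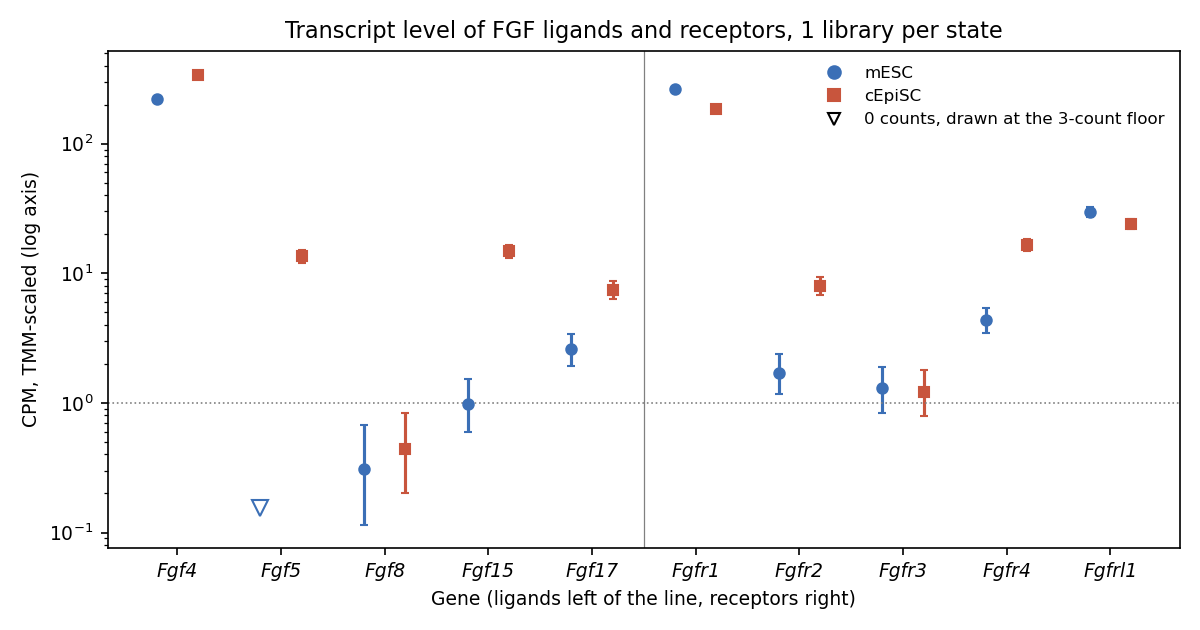
Level of each gene in CPM on a log axis in the mESC (circles) and cEpiSC (squares) libraries, with exact Poisson 95% intervals as bars, and an open triangle for 0 counts drawn at the floor of 3 counts. The dotted line marks 1 CPM. Fgf5, Fgf15, Fgf17, Fgfr2 and Fgfr4 have separate intervals with cEpiSC above, whereas Fgf8 and Fgfr3 overlap.

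Promoter sequence is shown for the abundant ligand Fgf4 and for the 3 genes called higher that had an entry in the RefSeq promoter table of GRCm38.p6 (Fgf5, Fgfr2 and Fgfr4), so that the start regions of genes with unlike ratios can be read side by side. The table held 6 of the 10 genes, and each window printed is the 250 bases before the annotated start, 5′ to 3′ on the gene's strand. Fgf4 lies at chr7:144861136-144861385 on the plus strand, Fgf5 at chr5:98253934-98254183 on the plus strand, Fgfr2 at chr7:130266809-130267058 on the minus strand and Fgfr4 at chr13:55152568-55152817 on the plus strand. Capitals mark matches to any of the motifs searched.
Fgf4: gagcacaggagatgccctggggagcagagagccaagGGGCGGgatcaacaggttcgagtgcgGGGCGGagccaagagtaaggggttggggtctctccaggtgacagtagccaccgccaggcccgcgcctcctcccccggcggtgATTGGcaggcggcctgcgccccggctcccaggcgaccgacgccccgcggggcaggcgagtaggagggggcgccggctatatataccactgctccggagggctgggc
Fgf5: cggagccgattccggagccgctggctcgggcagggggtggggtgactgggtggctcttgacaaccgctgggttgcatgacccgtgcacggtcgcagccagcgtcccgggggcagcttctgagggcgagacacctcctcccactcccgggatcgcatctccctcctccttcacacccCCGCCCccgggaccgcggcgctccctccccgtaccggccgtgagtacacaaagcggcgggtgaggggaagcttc
Fgfr2: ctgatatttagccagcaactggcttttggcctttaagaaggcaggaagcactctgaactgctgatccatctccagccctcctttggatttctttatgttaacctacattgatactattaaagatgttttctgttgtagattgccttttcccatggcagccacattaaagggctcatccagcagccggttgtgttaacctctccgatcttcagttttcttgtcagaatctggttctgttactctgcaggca
Fgfr4: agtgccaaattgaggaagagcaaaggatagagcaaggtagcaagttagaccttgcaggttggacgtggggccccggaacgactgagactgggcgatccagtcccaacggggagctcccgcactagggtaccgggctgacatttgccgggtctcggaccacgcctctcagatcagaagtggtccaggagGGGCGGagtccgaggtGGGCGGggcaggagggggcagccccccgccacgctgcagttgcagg

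The motifs were searched on both strands, and overlapping matches were each counted. Of general promoter elements, the GC box (GGGCGG), the box named CCAAT after its letters and the TATA box (letters TATAAA) were searched. Sites of pluripotency factors were the octamer bound by OCT factors, ATGCAAAT, the core CATTGT for SOX factors and, for OTX factors, the letters TAATCC. For factors downstream of ERK and Wnt, the ETS site CCGGAAGT, the AP-1 site with the letters TGANTCA and the TCF/LEF core, spelled CTTTGA, were taken. The Fgf4 window held GC boxes beginning 214 and 188 bases before the start and a CCAAT box at 106 bases. It also held the letters TATATATA close to the start, which the searched letters TATAAA do not match. Absence of a TATA match here thus does not mean absence of a TATA-like element. The Fgf5 window held 1 GC box, at 74 bases, and that of Fgfr4 held 2, at 62 and 46 bases. The Fgfr2 window matched none of the motifs. A GC box was present in 32.7% of all 32851 windows of this length and a CCAAT box in 33.8%. The octamer was present in 1.60% of all windows and the SOX core in 10.7%, and neither in the 4 windows shown. The G and C share was 71.2% for Fgf4, 70.8% for Fgf5, 64.0% for Fgfr4 and 44.0% for Fgfr2, against a median of 52.4%. The windows held 21, 24, 15 and 2 CG dinucleotides in that order, against a median of 6. The ligand whose transcript was abundant in both libraries and the ligand that was absent from one of them thus both had GC-rich start regions dense in CG. So did Fgfr4 and the windows not printed. These were Fgfrl1 (73.6%, 30 CG) and the windows of Fgfr3 (66.8% and 72.8%, 19 and 24 CG). Among the genes with a window, only Fgfr2 lay under the median. These matches describe the letters only.

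Among the ligands, 3 of the 4 compared were called higher in cEpiSC, against 13.6% of all genes compared. Of these, Fgf5 and Fgf15 were compared only through cEpiSC, the library where they were higher. Fgf4 (chromosome 7, 144861386 to 144865245, plus strand, in GRCm38.p6), the autocrine ligand of the inner cell mass and of embryonic stem cells, had 4287 counts in mESC and 6977 in cEpiSC, or 222 and 341 CPM. It was higher in cEpiSC by 1.54-fold, a log2 ratio of 0.62 (0.57 to 0.68), which is beyond counting error but short of 2-fold. With library totals, or with FPKM and a pseudocount of 1, Fgf4 gave 0.69, just past that interval. By TPM it stood at rank 1222 of the 18032 listed genes in mESC and at rank 719 in cEpiSC.

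Fgf5 (chromosome 5, 98254184 to 98277033, plus strand), a ligand of the postimplantation epiblast, had 0 counts in mESC, where the floor of 3 counts allows up to 0.155 CPM, and 276 in cEpiSC, or 13.5 CPM. Against that floor, and with the count of 276 taken as exact, it was at least 87.0-fold higher. With counting error in both libraries the lower limit of the log2 ratio was 6.13, which is a smaller fold. Of the 10 genes it was the one with no count in a library.

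Fgf15 (chromosome 7, 144896532 to 144900953, plus strand), the mouse counterpart of human FGF19 and known in the adult as a gut hormone that restrains bile acid synthesis, had 19 counts in mESC and 304 in cEpiSC, or 0.982 and 14.9 CPM. It was 15.1-fold higher, a log2 ratio of 3.79 (3.25 to 4.67). Fgf17 (chromosome 14, 70636203 to 70642268, minus strand), a ligand of the FGF8 subfamily, had 50 and 152 counts, or 2.58 and 7.43 CPM. Its log2 ratio was 1.49 (1.05 to 2.01), a 2.87-fold difference. In both genes the count intervals of the libraries were far apart.

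Fgf8 (chromosome 19, 45736491 to 45742941, minus strand), needed in the embryo for cells to move away from the primitive streak, had 6 counts in mESC and 9 in cEpiSC, or 0.310 and 0.440 CPM. It stayed under 1 CPM in both libraries and was not compared. The log2 ratio of 0.40 had an interval of -1.15 to 2.28, and these counts are too few to show a difference. The relative Fgf17 was the FGF8-subfamily ligand among the members that passed 1 CPM.

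Among the receptors, 2 of 5 were called higher, against 13.6% of all genes compared, and 3 lay within 2-fold. Fgfr1 (chromosome 8, 25518759 to 25575718, plus strand), the main FGF receptor of the epiblast, had 5141 counts in mESC and 3801 in cEpiSC, or 266 and 186 CPM. It was 1.43-fold lower in cEpiSC, a log2 ratio of -0.52 (-0.58 to -0.46), opposite in direction to its ligand gene Fgf4. The Fgfr1 ratio was -0.44 with library totals and -0.42 with FPKM and a pseudocount of 1, both outside that interval. Fgfr2 (chromosome 7, 130162451 to 130266808, minus strand), known for its part beside Fgfr1 in primitive endoderm, had 33 and 163 counts, or 1.71 and 7.96 CPM. It was 4.67-fold higher in cEpiSC, a log2 ratio of 2.16 (1.68 to 2.81). With FPKM and a pseudocount of 1 the ratio was 0.97, under 2-fold. Markers of primitive endoderm went in both directions. Dab2 (59.8 and 16.6 CPM) and Gata4 (8.79 and 4.30 CPM) were called lower in cEpiSC. Gata6 (5.63 and 7.48 CPM) and Sox17 (0.827 and 1.17 CPM) stood higher without being called so. The same held for Pdgfra (1.40 and 1.95 CPM) and Sox7 (0.155 and 0.733 CPM). Their part in the Fgfr2 level was not tested.

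Fgfr4 (chromosome 13, 55152818 to 55168759, plus strand), which in the liver pairs with beta-Klotho as the receptor of FGF15, had 84 counts in mESC and 341 in cEpiSC, or 4.34 and 16.7 CPM. It was 3.84-fold higher, a log2 ratio of 1.92 (1.59 to 2.30). Its co-receptor gene Klb was within 2-fold and lower, at 82 and 47 counts (log2 ratio -0.86, interval -1.43 to -0.35). Receptor and ligand thus stood higher in cEpiSC and the co-receptor did not.

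Fgfr3 (chromosome 5, 33721724 to 33737068, plus strand), best known for limiting bone growth, had 25 counts in each library, or 1.29 and 1.22 CPM. The log2 ratio of -0.07 had an interval of -0.94 to 0.78, so that a difference short of 2-fold in either direction cannot be seen at this depth. Fgfrl1 (chromosome 5, 108694229 to 108706950, plus strand), a receptor that binds FGF but has no kinase domain, had 574 and 488 counts, or 29.7 and 23.8 CPM. Its log2 ratio was -0.31 (-0.49 to -0.14), a 1.24-fold difference.

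The estimated counts of all 10 genes were within 0.005 of a whole number in both libraries. Whether reads were shared with similar loci was not tested. GENCODE vM21 places antisense transcripts opposite Fgf15 and Fgfr1 and an unclassified locus opposite Fgfr3. None of these is in the deposited table, and whether counting used strand is not given in the sources used here.

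Per transcript length, Fgf4 dominated the ligands and Fgfr1 the kinase receptors in both libraries, and both shares were smaller in cEpiSC. Fgf4 made up 97.0% of the summed TPM of the 5 ligands in mESC and 85.7% in cEpiSC. Fgfr1 made up 96.1% of that of the 4 kinase receptors in mESC and 82.4% in cEpiSC. By counts, which are not per length, the Fgfr1 share was 97.3% (exact binomial 95% interval 96.8 to 97.7) and 87.8% (86.8 to 88.7). The Fgf4 share by counts was 98.3% (97.8 to 98.6) and 90.4% (89.7 to 91.0). For neither gene did the intervals of the libraries overlap.

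The share that Fgf4 gave up was spread over Fgf15, which went from 0.738% to 6.40% of ligand TPM, Fgf5, from 0 to 4.16%, and Fgf17, from 1.92% to 3.34%. Among kinase receptors Fgfr4 went from 2.80% to 13.8% of TPM and Fgfr2 from 0.573% to 3.21%. Fgfr4 was thus the second kinase receptor by level in both libraries. Its level was 34.3 times under that of Fgfr1 in mESC and 5.98 times under it in cEpiSC.

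The summed ligand level was 139.5 TPM in mESC and 234.9 TPM in cEpiSC, a log2 ratio of 0.75. The summed level of the 4 kinase receptors was 106 and 84.7 TPM, a log2 ratio of -0.33, since the lower Fgfr1 outweighed the higher Fgfr2 and Fgfr4. With the deposited FPKM these ratios were 0.87 and -0.21. Within a library, the Fgf4 level in TPM was 1.32 times that of Fgfr1 in mESC and 2.89 times in cEpiSC. Ligand and receptor transcripts thus stood further apart after conversion.

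**Figure D2:**
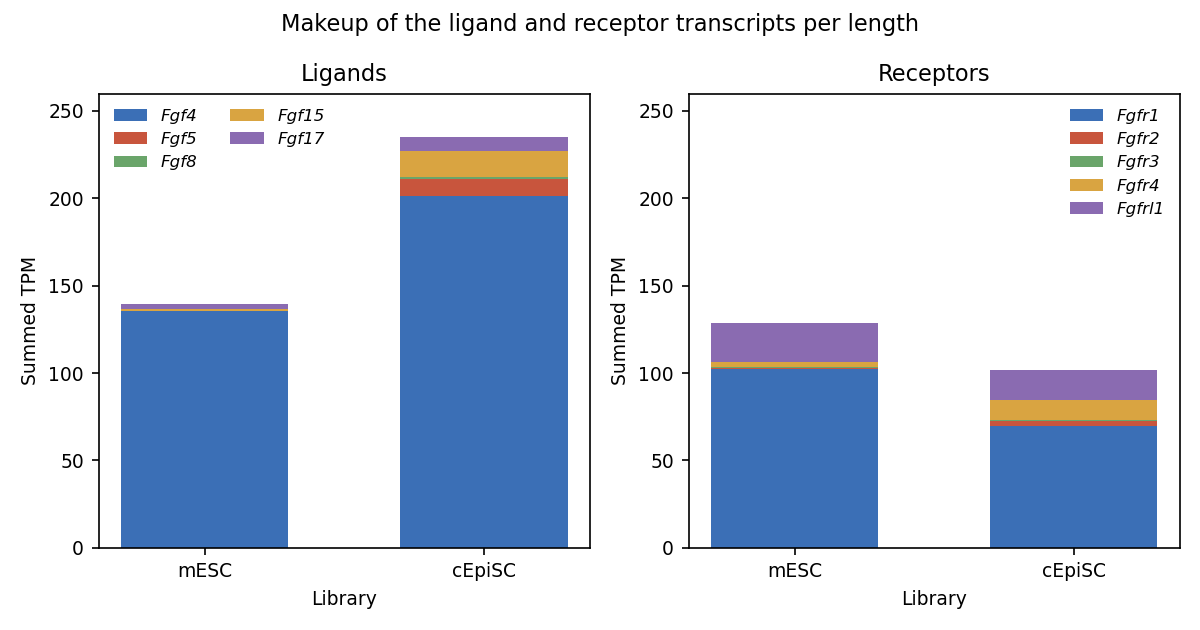
Summed TPM of the 5 ligands (left) and the 5 receptors (right) in each library, with each gene as a coloured part of the bar. The ligand bar is taller in cEpiSC (234.9 against 139.5 TPM) and the receptor bar shorter (102 against 128 TPM), and the parts of Fgf5, Fgf15, Fgf17, Fgfr2 and Fgfr4 are larger in cEpiSC.

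In order of TPM the mESC library gave Fgf4 (135 TPM), Fgfr1 (102), Fgfrl1 (21.9), Fgfr4 (2.98), Fgf17 (2.68), Fgf15 (1.03), Fgfr2 (0.610), Fgfr3 (0.580), Fgf8 (0.540) and Fgf5 (listed at 0). Neighbours in that order with overlapping counting intervals were Fgfr4 with Fgf17, Fgf15 with Fgfr2, Fgfr2 with Fgfr3, and Fgfr3 with Fgf8. In cEpiSC the order was Fgf4 (201 TPM), Fgfr1 (69.8), Fgfrl1 (16.9), Fgf15 (15.0), Fgfr4 (11.7), Fgf5 (9.78), Fgf17 (7.84), Fgfr2 (2.72), Fgf8 (0.840) and Fgfr3 (0.520). Here the overlapping neighbours were Fgfrl1 with Fgf15, Fgfr4 with Fgf5, Fgf5 with Fgf17, and Fgf8 with Fgfr3. The 3 most abundant genes kept their order, and Fgf15 and Fgf5 moved up past other members.

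The other FGF genes moved in both directions. Of the 15 that were in the table, 6 reached 1 CPM, of which 3 were called higher in cEpiSC, 2 lower and 1 neither (Fgf11). Their median log2 ratio was 0.31. The shares over all genes compared were 13.6% higher and 9.25% lower. Fgf10, a ligand of lung and limb buds that signals mainly through an epithelial form of FGFR2, had 149 counts in mESC (7.70 CPM) and 0 in cEpiSC. Against a floor of 3 counts, and with the count of 149 taken as exact, it was at least 52.5-fold lower. With counting error in both libraries the upper limit of the log2 ratio was -5.40, again a smaller fold. Fgf10 was thus the reverse of Fgf5, present in the library where Fgf5 was absent.

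Fgf3 had 74 counts in mESC and 19 in cEpiSC (log2 ratio -1.93, interval -2.85 to -1.30). Fgf13, one of the homologous factors that stay inside the cell and do not act as secreted ligands, had 50 and 217 counts (2.00, interval 1.59 to 2.51). Fgf18 had 3 and 22 counts (2.20, interval 1.06 to 5.18) and Fgf21, named after its value was seen, 13 and 39 (1.38, interval 0.57 to 2.53). With FPKM and a pseudocount of 1 both were under 2-fold (0.68 and 0.89), and with TPM Fgf18 was too (0.94). Fgf18 (0.155 and 1.08 CPM) and Fgf21 (0.672 and 1.91 CPM) reached 1 CPM only in cEpiSC, as Fgf3 and Fgf10 did only in mESC. Fgf2, the ligand added to the cEpiSC medium as protein, had 2 counts in mESC and 0 in cEpiSC, so its own transcript was at or under the floor of 3 counts in both libraries.

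**Figure D3:**
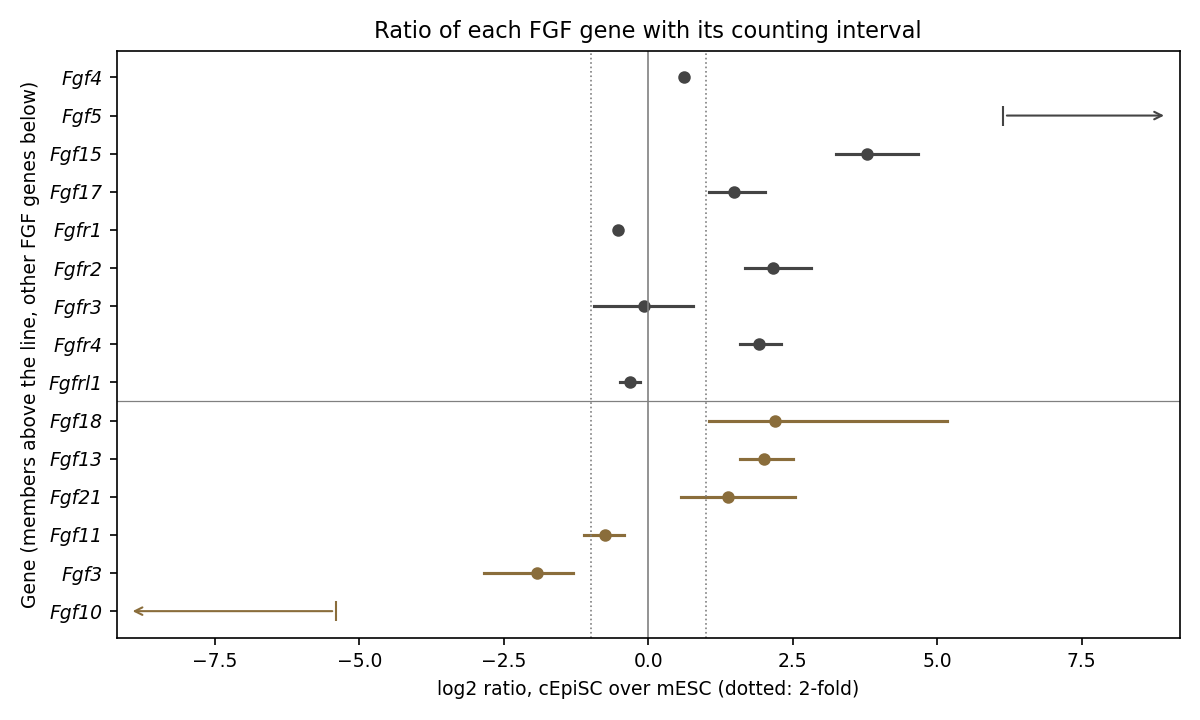
Log2 ratio of cEpiSC over mESC for the 9 members compared (above the line) and the 6 other FGF genes compared (below it), with exact 95% intervals as bars, and arrows for genes with 0 counts in a library that start at the finite limit. Dotted lines mark 2-fold. Fgf5 starts at 6.13 and Fgf10 at -5.40.

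Fgf4 and Fgf15 are neighbours on chromosome 7, with the Fgf15 start 35.1 kb beyond that of Fgf4, and Fgf3 starts 22.8 kb before Fgf4. These 3 genes on the same strand gave 3 different outcomes: Fgf3 was lower in cEpiSC (3.82 and 0.928 CPM), Fgf4 within 2-fold and higher, and Fgf15 far higher. None of the 4 other flanking genes compared passed 2-fold. Fadd (log2 ratio -0.50, interval -0.85 to -0.16) and Ano1 (2 and 8 counts, under 1 CPM) lay on the side of Fgf3. On the side of Fgf15 lay LTO1 (-0.75, interval -1.11 to -0.42), the cyclin D1 gene Ccnd1 (-0.32, interval -0.38 to -0.25) and Tpcn2 (-0.77, interval -1.12 to -0.44). Fadd, LTO1 and Ccnd1 had estimated counts that were not whole numbers and are less certain than their intervals. The high ratio of Fgf15 was thus not shared by any of the 5 flanking genes that were compared, Fgf3 included.

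**Figure D4:**
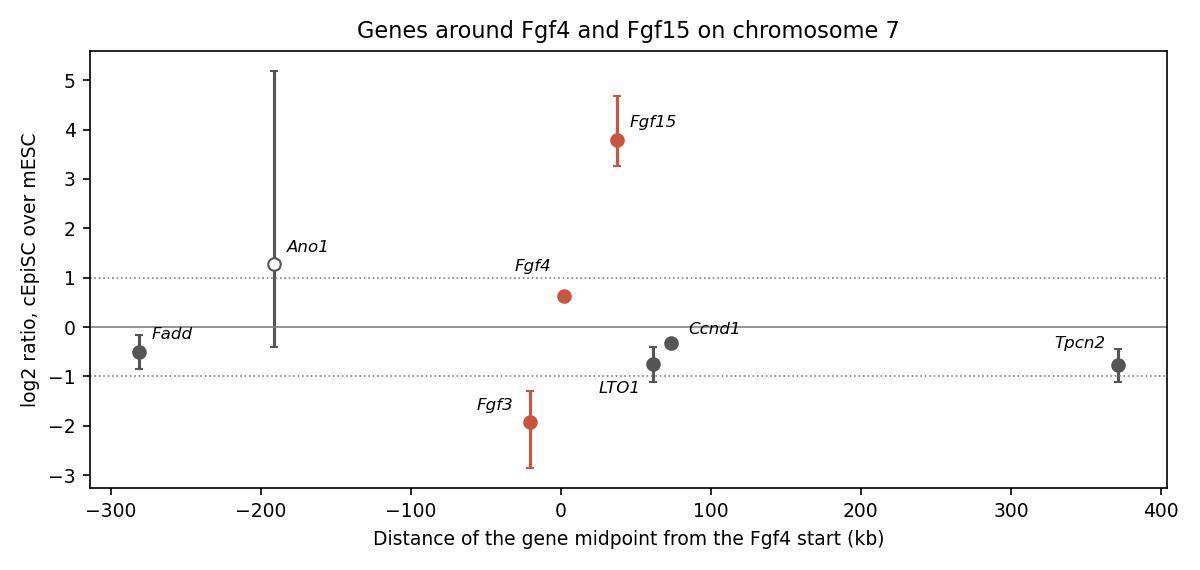
Log2 ratio of cEpiSC over mESC, with exact 95% intervals as bars, against the distance in kb of each gene's midpoint from the Fgf4 start, for the FGF genes (red) and their listed neighbours (grey, open where under 1 CPM in both libraries). Within 60 kb the values run from -1.93 at Fgf3 over 0.62 at Fgf4 to 3.79 at Fgf15.

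Transcripts of co-receptors and extracellular partners of FGF and its receptors were higher in part and lower in part. Of the 15 compared, 6 were called higher, 4 lower and 5 neither, against 13.6% higher and 9.25% lower over all genes compared. Their median log2 ratio was 0.43. The carriers Fgfbp1 (94 and 424 counts, 2.07, interval 1.77 to 2.43) and Fgfbp3 (18 and 135, 2.70, interval 2.11 to 3.62), which release FGF from the matrix, were higher in cEpiSC, as was the glypican gene Gpc1 (134 and 657, 2.20, interval 1.94 to 2.49). All 3 genes for FLRT proteins, membrane proteins of which FLRT3 is known to bind FGF receptors, were lower. Flrt1 had 96 and 10 counts (-3.10, interval -4.45 to -2.40). Flrt2 (-1.95), Flrt3 (-1.03) and the syndecan gene Sdc3 (-1.23), named after their values were seen, completed the lower genes. With TPM or FPKM and a pseudocount of 1 none of the 4 lower genes passed 2-fold. Flrt3 also fell short with library totals (-0.96). Kl, the co-receptor gene of FGF23, had 0 counts in both libraries.

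Between receptor and nucleus none of the 24 relay genes passed 2-fold in either direction, against 13.6% and 9.25% of all genes compared, and their median log2 ratio was -0.07. The most abundant, the docking protein gene Gab1, stood at 478 and 471 CPM (-0.02, interval -0.06 to 0.02). The pathway's inhibitors looked different: of 13 compared, 7 were called higher, 0 lower and 6 neither, at a median of 1.46. With TPM or FPKM and a pseudocount of 1, 6 were called higher. The one lost was Spred3 (1.46, interval 0.90 to 2.18), named after its value was seen, at 0.75 and 0.61. Besides Dusp4 (6.52), Spry4 (5.17) and Dusp6 (4.89), the ERK phosphatase gene Dusp9 was higher, from 930 counts (48.1 CPM) to 7026 (343 CPM), a log2 ratio of 2.83 (2.74 to 2.94).

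Of 12 ERK-responsive genes compared, 5 were called higher (all genes compared: 13.6%), 0 lower (9.25%) and 7 neither, at a median of 0.56. These included Myc (3.69), Etv1 (71 and 426 counts, 2.47, interval 2.14 to 2.89), Phlda1 (75 and 411, 2.34, interval 2.02 to 2.75) and the immediate early gene Egr1 (14 and 80, 2.28, interval 1.60 to 3.37). With FPKM and a pseudocount of 1 Egr1 was under 2-fold (0.92). The inhibitor and responsive lists were drawn up with earlier results of these data known and are no independent evidence of direction.

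**Figure D5:**
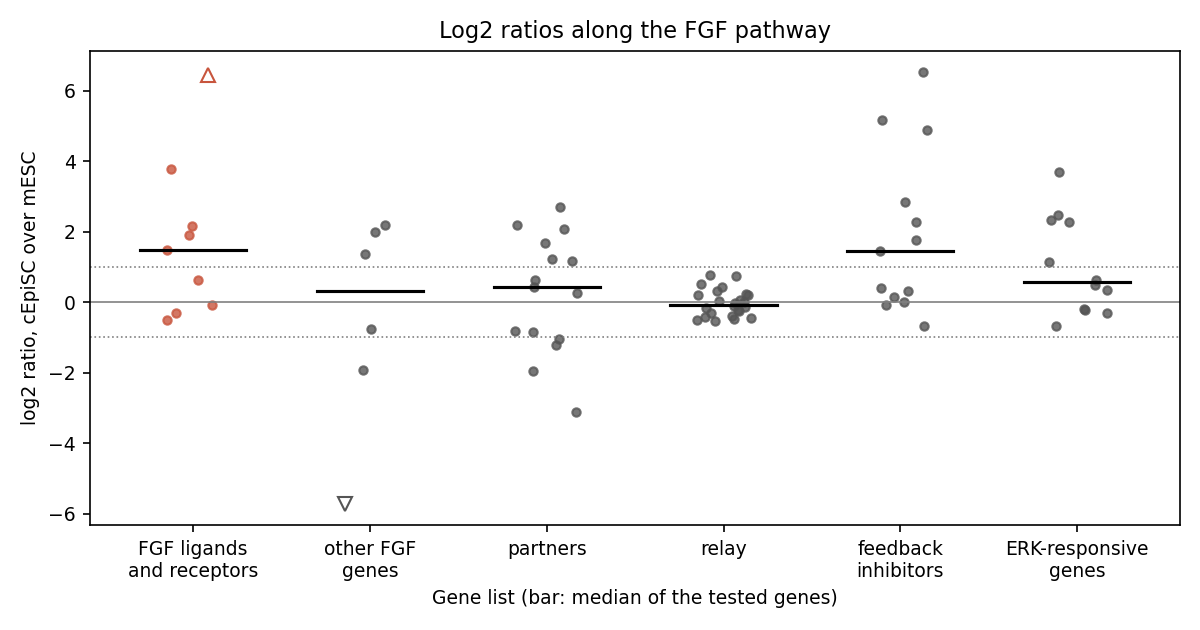
Log2 ratio of cEpiSC over mESC for each gene compared (points) in 6 lists, with the list's median as a bar and open triangles for genes with 0 counts in a library, drawn at their bound. The 24 relay genes all lie between the dotted 2-fold lines, around a median of -0.07, while the members have a median of 1.49 and the inhibitors of 1.46.

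The genes most like 3 of the members in level were sought among 12822 other genes by the distance of log2(TPM + 1) over both libraries, which with 2 points fixes a level in each library and nothing more. Nearest to Fgf4 were Bloc1s2 (131 and 200 TPM), Snrpn (138 and 208 TPM) and Prps1 (129.7 and 202 TPM), all at distances up to 0.06. Fgfr1 was matched even more closely by Chmp1a, Zmiz2 and Celf1, at distances of 0.03. Nearest to Fgf5 was the chemokine gene Cxcl12 at 0 and 7.97 TPM, a distance of 0.27, followed by Eif4e3 (0.310 and 10.3 TPM) and Gdf1 (0.0500 and 6.89 TPM). The nearest gene to Fgf5 lay farther away than the nearest to Fgf4 or Fgfr1. Such a distance depends on how many genes stand at that pair of levels, so it describes no property of Fgf5 itself.

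The effective transcript length implied by deposited counts and FPKM moves with the mix of transcript forms that quantification assigned to a gene. For Fgf4 it was 2938 bases in both libraries, for Fgfr1 4659 bases in mESC and 4621 in cEpiSC, and for Fgfrl1 2429 and 2450. It was shorter in cEpiSC by more for Fgfr4 (2613 and 2476 bases) and Fgf17 (1726 and 1645), the latter on 50 and 152 counts. The 5 other genes had under 50 counts in a library and are not compared in this respect. The table holds no values per transcript form, so the IIIb and IIIc forms of the receptors, which differ in the ligands they bind, were not analysed here.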

How the data were processed

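Polyadenylated RNA of 1 mESC and 1 cEpiSC library was analysed. Tools named in the submitters' processing notes are RSEM 1.3.1, HISAT2, Bowtie2 and DESeq2 1.34.0, with the build GRCm38.p6, and what each did is not given in the sources used here. For each gene, the authors deposited read counts, which are estimated counts since some are not whole. They also deposited TPM and FPKM, per the file headers, both divided by transcript length and scaled to the library. No column of another sample was present (0). Estimated counts were rounded and scaled with TMM (factors 0.975 and 1.03) in edgeR 4.0.16 under R 4.3.3. The log2 ratio used a prior count of 2, and folds and intervals (Clopper-Pearson) did not. Calls are by size (2-fold) among genes that reach 1 CPM in either library. With 1 library per state there are no residual degrees of freedom, so no test was run. Reads were amplified by PCR with no molecular identifiers and are not independent, so intervals and the floor of 3 counts cover only the error of counting. The script was tested on simulated Poisson counts. Changed genes in them had mean counts above those of most members called higher, so calls at low counts were not checked. The members and gene lists were chosen with earlier results of these data known. Named genes are all members, up to 4 genes of each pathway list with the largest ratios past 2-fold (the 2 most abundant where none was), the 3 nearest in level to Fgf4, Fgf5 and Fgfr1 without predicted genes, the 3 listed genes on each side of Fgf4 and Fgf15, and cell type markers. Of the 17 other FGF genes listed, 2 are not analysed here, and the protein sequences of the members were not used here. The values of 1 gene that this rule names are not reported here. Coordinates come from a table of RefSeq genes (GRCm38.p6) matched on Entrez identifiers, and promoter windows are RefSeq's of that build. Alternatives were DESeq2 1.42.0 size factors, library totals, no filter, a 5 CPM filter, prior counts of 0.5 and 5, and TPM or FPKM with a pseudocount of 1. Python 3.11.15 was used for the rest.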

Additional observations from a re-analysis of the deposited data

How the results depend on the processing

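Over 72 values of the 10 genes under 8 alternatives, no called ratio changed sign and 11 moved beyond their counting interval, 9 of them with TPM or FPKM and a pseudocount of 1 or with a prior count of 5, and 2 with library totals. The 2 that moved with library totals were Fgf4 (0.69) and Fgfr1 (-0.44), which also moved with FPKM (0.69 and -0.42). With FPKM, 4 members were called higher in place of 5, Fgfr2 being the one lost (0.97). All other alternatives gave 5 higher, and every alternative gave 0 lower. Over all genes compared, the number called higher was 1796 and became 2712 without a filter, 970 at 5 CPM, 1091 with TPM and 945 with FPKM. The number called lower was 1225 and became 1665 without a filter, 924 at 5 CPM, 949 with TPM and 680 with FPKM. With FPKM 1 other FGF gene was called higher in place of 3, and with TPM and FPKM 0 extracellular partners were called lower in place of 4. A pseudocount of 1 shrinks ratios of low genes by construction. With FPKM the log2 ratio of summed levels was 0.87 for the ligands, -0.21 for the 4 kinase receptors and -0.22 for all 5 receptors, against 0.75, -0.33 and -0.34 with TPM. Depth limits Fgf8 and Fgfr3, whose intervals include both directions. No paired analysis was possible because each state has 1 library, which also leaves no replicate to leave out.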
